A study of Brassica rapa subsp. rapa with 9 samples.

Results

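The transcript levels of turnip storage organs exposed to UV-B were set against those of organs exposed to blue light. The comparison used 6 of the 9 arrays of the study, 3 titled as exposed to UV-B and 3 as exposed to blue light, taken by their titles. Each array carried RNA of the swollen hypocotyl of a red turnip cultivar, Tsuda (Brassica rapa subsp. rapa), after 24 hours under its light (Cy3), together with RNA of hypocotyls kept in darkness (Cy5). Both groups therefore share the cultivar, the organ, the exposure time and a dark control on every array. RNA came from the peeled surface layer only, was extracted with Trizol and was purified as polyA RNA with oligo(dT) cellulose. Per the design text, the 3 arrays of a light are biological replicates, each pooled from over 5 plants. Titles were used for the groups, since the description field reads blue light for UV-B samples too. The other 3 arrays, exposed to UV-A, entered only the estimate of the spread between replicates.

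Anthocyanins colour the skin of this turnip where light reaches it. In plants, UV-B is perceived by the receptor UVR8 and can also damage DNA, proteins and membranes, whereas blue light is perceived by phototropins and cryptochromes. Both kinds of light are known to switch on phenylpropanoid and flavonoid genes, and UV-B is also known to raise defence and detoxification genes. Chalcone synthase stands at the entry to the flavonoid pathway, and the later enzymes lead from its product to anthocyanins.

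The measurement was log2(light/dark) per array for 2507 cDNA probes, and the comparison was the UV-B mean minus the blue mean. Since the dyes had the same orientation on all arrays, a dye bias of a probe is shared by both lights and cancels in this difference. A probe passed where limma's moderated test gave an adjusted p under 0.05 (Benjamini-Hochberg over all probes). Arabidopsis gene names were given in the files for 2109 probes and came to 998 names, each represented by its brightest probe. The sequence of a clone and its turnip locus were not used here, and related turnip gene copies may share a probe. In this bulk tissue, fewer cells of a type and less RNA per cell cannot be told apart. Under the names searched, none of the listed vascular and epidermal marker genes, photolyases or DNA repair genes was found among the measured names. Other names of the same genes were not searched, so the labelled tissue layer was not checked by such markers.

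Profiles under UV-B and blue light differed at many transcripts. Of the 2507 probes, 460 passed (18.3%), 202 of them higher in UV-B than in blue light (8.06%) and 258 lower (10.3%). Over 1 probe per gene name, 182 of 998 passed (18.2%), with 87 higher (8.72%) and 95 lower (9.52%). Among the largest differences were a measured 12.5-fold higher value of the pathogenesis-related gene PR4, whose light channel was saturated on 2 of 3 UV-B arrays, and a basic chitinase transcript at least 7.83-fold higher. On the other side, glycosyl hydrolase, peroxidase and GTPase transcripts were 9.88-fold to 22.9-fold lower as measured.

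The arrays of 1 light resembled each other more than those of the other light. Across probes, log2(light/dark) correlated at 0.573 to 0.772 between the UV-B arrays and at 0.379 to 0.388 between the blue arrays, but at only -0.19 to 0.156 between a UV-B and a blue array. Blue arrays correlated more closely with the UV-A array of the same number, at 0.686, 0.642 and 0.699 for numbers 1, 2 and 3. Probes that passed as higher had a median log2(light/dark) of 1.29 in UV-B and -0.57 in blue light. Those that passed as lower had medians of -1.74 and 0.62. These probes were chosen by their difference, which favours medians on opposite sides of the dark level. Over all probes the medians were 0.01 in UV-B and 0.02 in blue light. By way of background for the values that follow, the 3 UV-B and 3 blue values did not overlap for 35.7% of the 998 names, above in UV-B for 19.9% and below for 15.7%. Among the names that passed, the values did not overlap for 86 of the 87 higher and 92 of the 95 lower. The largest rises and falls named below were chosen among names without overlap, so its absence there is no further support. The 18.2% of names that passed is likewise the background for the counts by list.

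**Figure D1:**
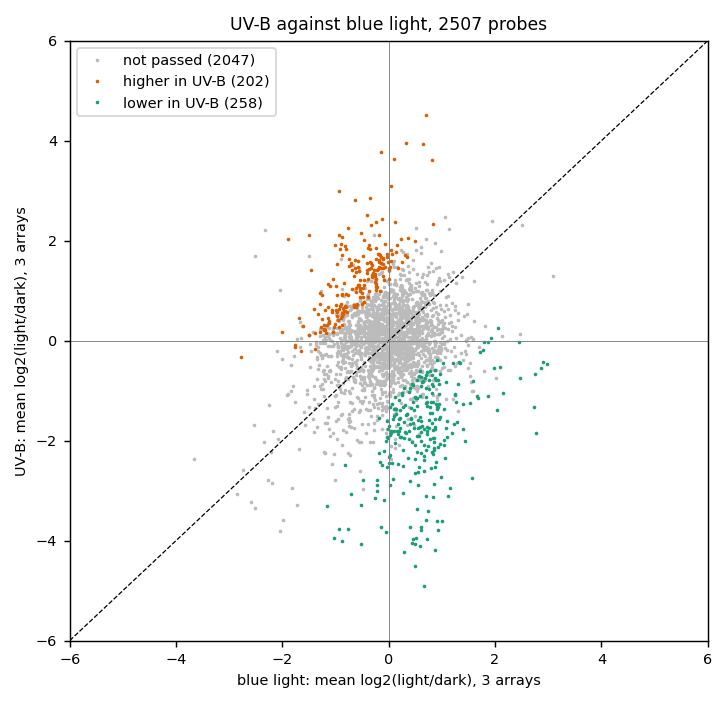
Mean log2(light/dark) of each of the 2507 probes in UV-B (vertical axis, 3 arrays) against blue light (horizontal axis, 3 arrays). The dashed line marks equal values, and the 202 probes that passed as higher in UV-B and the 258 that passed as lower are coloured. Most passing probes lie toward the upper left and the lower right.

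Same-numbered arrays deviated together from their group means, so the replicate number was also fitted as a block. With it, 723 probes passed (28.8%), 332 higher (13.2%) and 391 lower (15.6%), and all 460 were among them. Single arrays weighed on the count. It was 218 without UV-B replicate 3, 235 without UV-B replicate 1 and 282 without blue replicate 3. With all arrays of 1 number left out, it was 39 without number 1, 299 without number 2 and 186 without number 3. The light channel of UV-B replicates 1 and 2 was dim, at a median of 3.57 and 4.35 times background, against 16.5 in UV-B replicate 3 and 9.85 to 28.9 on the blue arrays. On UV-B replicate 1, 78.8% of probes were above background in the light channel. The light channel alone, without the dark reference, gave 187 probes (7.46%), 41 higher (1.64%) and 146 lower (5.82%), whereas in the dark channel alone, 0 probes differed by limma between the arrays of the 2 lights (99 at an unadjusted p under 0.05).

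PR4 and ATHCHIB, both defence genes, were among the 4 largest rises. The list of pathogenesis-related proteins and chitinases had 4 measured members, of which 2 passed as higher (1 without replicate number 1) and 0 as lower (1 without UV-B replicate 2), and the median difference was 1.95 against 0.12 over all 998 names. PR4, a pathogenesis-related protein of the class that binds chitin, had log2(light/dark) values of 3.85, 3.79 and 4.25 on the UV-B arrays and of 0.90, 0.19 and -0.14 on the blue arrays. All 3 UV-B values lay far above the blue ones, and the difference was 3.64 ± 0.38 (SE, n = 3 per light; adjusted p = 0.000194), as measured with the light channel saturated on 2 of 3 UV-B arrays. A second probe named PR4 differed by -0.93 and did not pass, so the clones of this name did not behave alike.

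ATHCHIB, a basic chitinase that degrades fungal cell walls, measured 3.25, 2.97 and 4.67 in UV-B and -0.40, 1.15 and -0.46 in blue light. The groups were well apart. Its light channel was saturated on all 3 UV-B arrays, so that channel gives only a bound, at least 7.83-fold higher. The adjusted p was 0.00456 for the light/dark ratio and 0.00606 for the light channel alone. Of 4 further probes with this name, 2 also passed as higher. The other chitinases did not pass. ELP differed by -1.13 (adjusted p = 0.235) and AT2G43590, annotated as a chitin-binding chitinase, by 0.37 (adjusted p = 0.56).

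Glutathione transferases, which couple glutathione to reactive compounds, held 3 passing members of 7, all higher, and the median of the 7 was 0.40. That is 42.9% of this short list, against 18.2% of all 998 names. ATGSTU13 lay at 2.86, 2.59 and 2.97 in UV-B and at -0.17, -0.70 and -1.05 in blue light. It was thus above its dark level under UV-B and below it on each blue array, 10.9-fold apart (difference 3.45 ± 0.43 SE, adjusted p = 0.000559). ATGSTF3, saturated in the light channel on 2 of 3 UV-B arrays, differed by 2.26 (adjusted p = 0.00796) and its other probe by 3.21, both passing. ATGSTF7 differed by 1.36 (adjusted p = 0.0331), from a UV-B mean of 0.48 ± 0.25 (SD) and a blue mean of -0.87 ± 0.46 (SD). The 4 others did not pass, among them ATGSTF12, whose Arabidopsis counterpart carries anthocyanins towards the vacuole, at -0.66 (adjusted p = 0.263). With the replicate block, ATGSTF10 also passed, as lower (difference -1.11, adjusted p = 0.0491). Without replicate number 1 or number 2, only 1 member of the 7 passed.

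Enzymes that act on reactive oxygen did not move together. Of 13 measured, 1 passed as higher and 1 as lower, with a median of 0.21. This is 15.4%, near the 18.2% of all 998 names. PRXR1, a class III peroxidase of the secretory kind, had values of -3.54, -2.84 and -2.75 in UV-B and of -0.73, 0.64 and 0.88 in blue light. Every UV-B value lay below every blue one, and the transcript was 9.88-fold lower (difference -3.30 ± 0.52 SE, adjusted p = 0.00229). This is the measured value, with saturation in the light channel on 2 of 3 blue arrays and in the dark channel on 2 of 3 UV-B arrays. CSD1, the cytosolic copper and zinc superoxide dismutase, was above darkness under both lights, at 1.98, 1.85 and 3.15 in UV-B and at 0.83, 0.40 and 1.26 in blue light. Its difference of 1.5 passed (adjusted p = 0.0349), but not when 1 of 5 single arrays was left out (blue replicate 1 or 2, UV-A replicate 1, UV-B replicate 1 or 3; adjusted p up to 0.112), and 2 further CSD1 probes differed by 0.03 and 1.26 without passing. With the block, the peroxidase AT5G64120 (-1.58) and the ascorbate peroxidase APX3 (-1.12) also passed as lower and the peroxidase AT5G58390 (1.36) as higher. The list then held 2 higher and 3 lower of 13, while 28.3% of all 998 names passed. Catalase CAT3 (-0.86), the manganese superoxide dismutase MSD1 (0.21) and ascorbate peroxidase APX1 (0.80) did not pass in either fit.

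The pigment pathway did not clearly separate the 2 lights at this precision, though 1 gene, LDOX, passed with the replicate block. Of 5 flavonoid genes measured, 0 passed by limma (1 at an unadjusted p under 0.05; median difference -0.66), and 0 did when any single array was left out. CHS, chalcone synthase, lay at 0.21, 0.03 and 1.24 in UV-B and at 0.56, 0.87 and 2.81 in blue light. The groups overlapped, and the highest value of either light was on replicate 3. The difference was -0.92 (95% interval -2.31 to 0.46, adjusted p = 0.319), and 6 further CHS probes differed by -0.36 to 0.85 without passing.

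None of the measured steps after chalcone synthase passed without the replicate block. F3H, naringenin 3-dioxygenase, differed by 0.71 (adjusted p = 0.258), and DFR, dihydroflavonol reductase, by -0.38 (adjusted p = 0.742). LDOX, which makes the coloured anthocyanidins, averaged -0.86 ± 0.22 (SD) in UV-B and 0.39 ± 1.03 in blue light. Its values did not overlap, at -1.10, -0.84 and -0.66 in UV-B and -0.003, -0.39 and 1.56 in blue light. Its difference of -1.25 had an adjusted p of 0.0941, and of 0.0339 with the replicate block, where it passed as lower.

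PAL1, phenylalanine ammonia-lyase, is the first step from phenylalanine into phenylpropanoids. Its values were 1.12, 1.71 and 2.20 in UV-B and 0.18, 0.20 and 0.65 in blue light. The groups did not overlap, and the level was 2.52-fold higher in UV-B (difference 1.33 ± 0.39 SE, adjusted p = 0.0349). The call was lost in 6 of 9 fits with 1 array left out (blue replicate 1 or 2, UV-A replicate 1 or 3, UV-B replicate 2 or 3; adjusted p up to 0.11). The other 2 measured members of the phenylpropanoid list did not pass, CYP98A3, a coumarate hydroxylase, at -0.56 (adjusted p = 0.461) and ATOMT1, an O-methyltransferase of lignin precursors, at -0.31 (adjusted p = 0.57).

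Transcripts of 2 light receptors were measured, and 0 passed by limma (0 also at an unadjusted p under 0.05). UVR8, the UV-B receptor, had values of -0.23, 0.54 and -0.29 in UV-B and of 0.38, -0.10 and 0.29 in blue light. Both groups straddled the dark level and overlapped (difference -0.18, 95% interval -0.98 to 0.62). PHOT1, a phototropin kinase that senses blue light, averaged 0.37 in UV-B and -0.45 in blue light (adjusted p = 0.217).

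Of 74 ribosomal constituents measured, 10 passed as higher in UV-B and 2 as lower, 16.2% of the list, which is near the 18.2% of all names. The difference was positive for 58 of the 74, against 551 of all 998 names, and its median was 0.73, against 0.12. The median log2(light/dark) of the list was 0.06 in UV-B and -0.53 in blue light, against 0.14 and 0.08 over all 998 names. With the block, 20 passed as higher and 2 as lower, while 28.3% of all 998 names passed, 14.6% as higher and 13.6% as lower. The number higher depended on single arrays, at 2 without UV-B replicate 3, 4 without blue replicate 2, UV-A replicate 1 or UV-A replicate 3, and 5 without blue replicate 3 or UV-B replicate 1. It was 0 when all arrays of any 1 number were left out, whereas the median stayed between 0.58 and 0.83 in all 12 of these fits. The light channel alone gave 1 higher and 1 lower.

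The largest rise among them was that of AT2G33800, at 1.91 ± 0.69 (SD) in UV-B and -0.38 ± 0.60 in blue light (difference 2.29, adjusted p = 0.00783). The 2 members that passed as lower went far in the other direction. AT4G02230 measured -2.01, -1.86 and -2.53 in UV-B and 0.53, 0.60 and 1.63 in blue light, an 8.29-fold lower value (adjusted p = 0.00125). In the light channel alone it differed by -1.59 (adjusted p = 0.0698), its dark channel being higher on the UV-B arrays by 1.46. AT2G36160 was 6.30-fold lower (adjusted p = 0.00351), although a second probe with its name differed by 0.48.

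**Figure D2:**
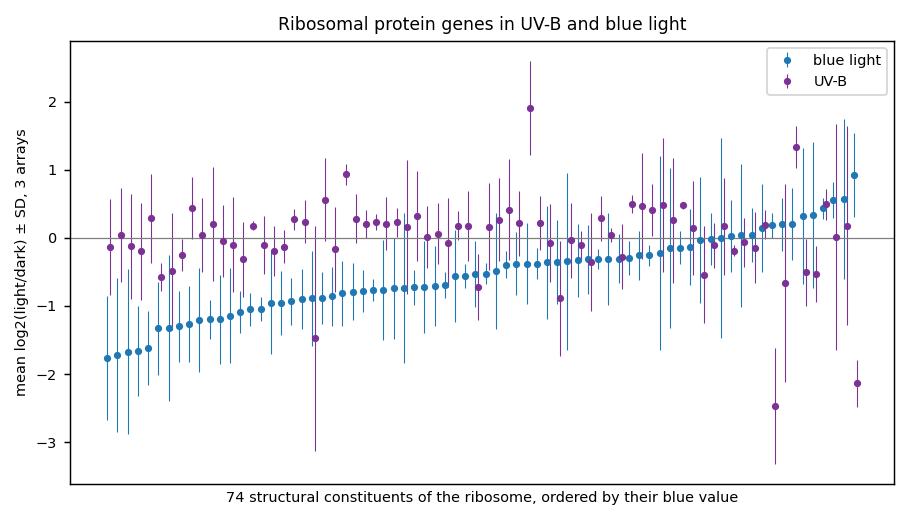
Mean log2(light/dark) with its SD over 3 arrays (vertical axis) for the 74 structural constituents of the ribosome in blue light and in UV-B, ordered by the blue value. The blue values have a median of -0.53 and the UV-B values of 0.06, and the members at the right end include the 2 that passed as lower in UV-B.

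Translation factors had 4 members higher and 2 lower of 15 (median 0.49), the same counts with the block. That is 40.0% of the list, against 18.2% of all 998 names, or 28.3% with the block. AT1G07920, an elongation factor, was tightly placed at 1.59, 1.59 and 1.71 in UV-B and at 0.32, -0.46 and -0.56 in blue light (difference 1.86, adjusted p = 0.0072). Of 4 further probes with its name, 2 also passed as higher. The elongation factors AT1G30230 (1.53) and AT2G45030 (1.27) and the initiation factor subunit TIF3H1 (1.48) passed as higher too. The initiation factors AT5G36230 (-1.81) and EIF3C (-1.34) passed as lower. AT5G36230 lost its call in 6 of 9 fits with 1 array left out (blue replicate 1 or 3, UV-A replicate 1, each UV-B replicate; adjusted p up to 0.107), and the list held 1 higher and 0 lower without blue replicate 3, UV-B replicate 1 or UV-B replicate 3. Without UV-A replicate 1 it held 2 higher and 0 lower, and without blue replicate 1 or 2 or UV-B replicate 2 the number lower was 1.

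Genes of protein breakdown by the ubiquitin and proteasome system gave 6 higher and 1 lower of 31 (median 0.36). That is 22.6%, near the 18.2% of all 998 names. With the block, 10 were higher and 2 lower, while 28.3% of all names passed. AT5G63780, annotated as a ubiquitin ligase, was the most uniform, at 2.36, 2.56 and 2.38 in UV-B and 0.25, -0.04 and -0.59 in blue light. It was 5.90-fold higher (difference 2.56 ± 0.41 SE, adjusted p = 0.00241). RPT4A, an ATPase of the proteasome's regulatory particle, lay at 2.37, 2.02 and 1.95 in UV-B and at -0.47, 0.66 and -0.71 in blue light (adjusted p = 0.00952). Other members that passed were the conjugating enzymes UBC20 (1.59) and AT3G17000 (1.64) and the ligases AT2G26000 (1.71) and AT5G03180 (2.00). UBP24, a protease that removes ubiquitin, passed as lower (-1.91, adjusted p = 0.0159). Without UV-B replicate 1 the list had 2 higher and 0 lower, and without UV-B replicate 3 it had 3 higher and 1 lower.

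**Figure D3:**
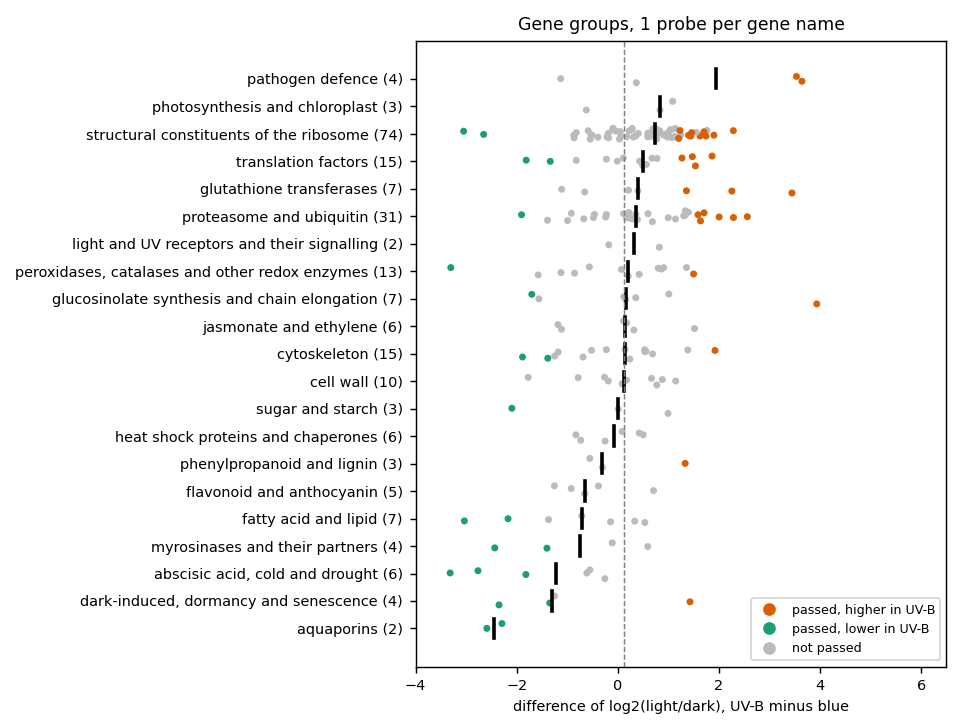
Difference of log2(light/dark), UV-B minus blue (horizontal axis), for every measured member of 21 gene groups, with 1 probe per gene name and the number of members in brackets. Black bars are group medians, the dashed line is the median of 0.12 over all 998 names, and colour marks members that passed. Both aquaporins lie at the lower end, and PR4 and ATHCHIB stand apart from the other defence genes.

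Water channels of the plasma membrane were lower in UV-B. PIP1B lay at -1.96, -1.49 and -1.79 in UV-B and at 0.40, 0.88 and 0.36 in blue light. PIP3 measured -1.76, -2.02 and -2.49 in UV-B and -0.09, 0.23 and 1.36 in blue light. For both, all UV-B values lay below all blue values, with PIP1B 4.90-fold lower (adjusted p = 0.00195) and PIP3 6.03-fold lower (adjusted p = 0.0044). The second PIP1B probe also passed, at -1.99. Both genes passed with any single array left out, but neither passed without replicate number 1 (adjusted p of 0.0772 and 0.0519).

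Of 6 genes named for drought, cold and abscisic acid, 3 passed as lower in UV-B and 0 as higher (median -1.22). RD21, a cysteine protease responsive to dehydration, was high in blue light, at 3.18, 0.83 and 4.69, and near darkness in UV-B, at -0.26, -1.09 and 0.10. The groups did not overlap, but the blue values spread widely (SD 1.95). Its difference of -3.32 had an adjusted p of 0.0207 without and of 0.00084 with the block, and its other probe passed at -2.52. The call was lost when blue replicate 1 or 3 or UV-B replicate 1 or 2 was left out (adjusted p up to 0.0639).

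ERD14, a dehydrin, lay at -1.76, -0.08 and -1.88 in UV-B and at 0.93, 1.31 and 2.34 in blue light (6.81-fold lower, adjusted p = 0.00951). RCI2B, a small membrane protein induced by cold, averaged -1.49 in UV-B and 0.33 in blue light (difference -1.82, adjusted p = 0.0207). RD29B (-0.61), ERD10 (-0.55) and COR78 (-0.26) did not pass. Without blue replicate 1 or UV-B replicate 1, 1 member of the list passed, and 0 did without replicate number 1 or number 3.

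Genes associated with darkness, dormancy and senescence went both ways. Of 4 measured, 2 passed as lower and 1 as higher (median -1.30), 75.0% of a short list against 18.2% of all 998 names. DRM1, a dormancy-associated gene, measured -1.02, -1.32 and -2.44 in UV-B and 0.30, 1.53 and 0.44 in blue light, 5.10-fold lower as measured (adjusted p = 0.0115), with the light channel saturated on 2 of 3 blue arrays. SAG101, a lipase-like gene of senescence and immunity, was lower by a difference of -1.35 (adjusted p = 0.0362), and passed in 2 of 9 fits with 1 array left out, those without UV-A replicate 2 or UV-B replicate 3. SAG21, a late embryogenesis abundant protein, lay at 0.98, 1.04 and 0.63 in UV-B and at -0.31, -0.22 and -1.10 in blue light (difference 1.43, adjusted p = 0.0247). Its call was lost without blue replicate 3 or UV-B replicate 1 or 2 (adjusted p up to 0.0819). The brightest probe of DIN11, a dark-inducible gene, differed by -1.25 (adjusted p = 0.0894, and 0.0401 with the block), and of all 25 DIN11 probes 1 passed as lower, or 5 with the block.

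Glucosinolates are sulphur compounds of the cabbage family that myrosinases split into pungent products. Of 7 genes of glucosinolate synthesis and chain elongation, 1 was higher and 1 lower (28.6%, against 18.2% of all 998 names). Their median was 0.15. AT4G13430, annotated as a hydro-lyase, had the largest rise of all named genes, with 3.99, 2.78 and 2.23 in UV-B and -0.64, -0.31 and -1.86 in blue light (15.3-fold, adjusted p = 0.000942). In the light channel alone its difference was 2.80 (adjusted p = 0.0845), since the dark channel differed by -1.14 in the other direction. MAM-L, related to the synthases that lengthen methionine side chains, was 3.25-fold lower (adjusted p = 0.0227), and lost its call without blue replicate 2 or 3 or UV-B replicate 1 or 3 (adjusted p up to 0.0884). Its 4 other probes differed by -1.59 to -0.62 without passing.

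Other genes of this pathway showed no common direction. CYP83A1, which oxidises aldoximes on the way to aliphatic glucosinolates, was below darkness under both lights on its brightest probe, at -2.29 and -0.73 (adjusted p = 0.072, and 0.0131 with the block). Of all 19 CYP83A1 probes, 4 passed as lower, or 6 with the block. MAM1 was low under both lights, at -2.59 in UV-B and -2.75 in blue light, with a difference of 0.15 that did not pass. CYP83B1 (0.12), AT2G43100 (0.35) and SUR1 (1.01) did not pass.

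Among myrosinases and their partners, 4 members were found by the names searched, and 2 of these passed, both lower (median -0.76). Members that the files give by locus number alone may be missing from this count. Both that passed were myrosinase-binding proteins, lectins that associate with the enzyme. MBP1 lay at -2.12, -0.49 and -2.68 in UV-B and at 1.93, -0.12 and 0.21 in blue light, and MBP2 averaged -0.70 against 0.71. Neither overlapped between the lights. MBP1 was 5.41-fold lower (adjusted p = 0.0335) and lost its call without blue replicate 1 or 3 or UV-B replicate 1 or 3 (adjusted p up to 0.114). MBP2 was 2.64-fold lower (adjusted p = 0.0435) and kept its call in 1 of 9 such fits, that without blue replicate 2 (adjusted p up to 0.116). The 4 other MBP2 probes differed by -0.80 to 0.28 and did not pass. TGG1, a myrosinase (0.59), and ESP, which turns its product into nitriles (-0.11), did not pass.

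In carbon metabolism, SEX1 was lower on its brightest probe. This dikinase adds phosphate to starch and starts its breakdown, and it measured -1.16, -1.78 and -2.02 in UV-B against 0.69, -0.23 and 0.89 in blue light (4.28-fold lower, adjusted p = 0.0207). The call was lost without blue replicate 1 or 3 or UV-B replicate 3 (adjusted p up to 0.0711). It was also lost in the light channel alone (difference -1.33, adjusted p = 0.172). The 4 further SEX1 probes differed by -0.18 to 1.19 without passing, but with the block 1 of them passed as higher, the opposite direction. Sucrose synthase SUS1 differed by 0.01 and the trehalose phosphate synthase ATTPS1 by 0.99, and neither passed.

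Of 7 genes of fatty acid and lipid synthesis, 2 passed, both lower (median -0.71), 28.6% of the list against 18.2% of all 998 names. ADS2, a desaturase of fatty acids, was evenly low in UV-B at -2.24, -2.36 and -2.06, and lay at 0.45, -0.11 and 2.11 in blue light. The groups did not overlap (8.20-fold lower, adjusted p = 0.0078), but a second probe differed by only -0.36. AT3G61580, annotated as a sphingolipid desaturase, was 4.51-fold lower (adjusted p = 0.0301), with a light channel above background on 2 of 3 UV-B arrays, and lost its call without blue replicate 2 or 3 or UV-B replicate 3 (adjusted p up to 0.0755). FAB1, a condensing enzyme of fatty acid synthesis, passed as lower with the block (difference -1.37, adjusted p = 0.0269, against 0.064). The desaturases FAD2 (0.33), FAD3 (0.53) and FAD6 (-0.71) did not pass.

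Tubulins of microtubules differed by member. Of 15 cytoskeleton genes, 1 passed as higher and 2 as lower (median 0.14). That is 20.0%, near the 18.2% of all 998 names. TUA3, an alpha tubulin, lay at 1.14, 1.28 and 2.28 in UV-B and -0.12, -0.34 and -0.61 in blue light (3.79-fold higher, adjusted p = 0.00895), while its other probe differed by 0.50 and did not pass. The beta tubulins TUB6 (difference -1.89, adjusted p = 0.0308) and TUB8 (-1.39, adjusted p = 0.0284) were lower. TUB6 lost its call without any 1 of the blue replicates, UV-B replicate 1 or UV-B replicate 3 (adjusted p up to 0.119), and neither beta tubulin passed without blue replicate 2 or 3 or UV-B replicate 1 or 3. The actins ACT7 (0.14) and ACT8 (0.53) did not pass.

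Several groups held no passing member by limma without the block, on the brightest probe of each name. In the cell wall list 0 of 10 passed (2 at an unadjusted p under 0.05, 1 without blue replicate 1; median 0.13), and ATEXT3, an extensin, lay between -0.20 and 1.13 in UV-B and between -0.33 and 1.60 in blue light, with a saturated light channel on all 3 blue arrays. With the block, the cellulose synthase CESA1 passed as higher (1.14) and the xyloglucan transferase EXGT-A1 as lower (-1.77). Of 3 photosynthesis genes 0 passed (1 at an unadjusted p under 0.05), with LHCB2.1, a light-harvesting protein, at -0.62 and the Rubisco small-chain gene AT5G38420 at 0.83 (adjusted p = 0.403). RCA, Rubisco activase, passed as higher with the block (1.09, adjusted p = 0.0416).

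Hormone and chaperone genes were similar in this respect. Of 6 jasmonate and ethylene genes 0 passed (3 at an unadjusted p under 0.05, 1 without UV-B replicate 2; median 0.14), with the lipoxygenase LOX2 at 0.11 (adjusted p = 0.849), although its second probe passed as lower at -1.46. With the block, the brightest probe of the ethylene synthesis gene ACO1 passed as higher (1.52) and ACS6 (-1.18) and JR1 (-1.11) as lower. Of all 9 ACO1 probes, 4 passed as higher without the block (median 2.20). Of 6 heat shock proteins and chaperones 0 passed in either fit by limma (0 also at an unadjusted p under 0.05), and they ranged from -0.83 to 0.50. CCS1, the copper chaperone of superoxide dismutase, differed by 0.42 (adjusted p = 0.461), while 1 of its 2 other probes passed as higher.

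The largest rises outside these groups were of diverse function. ATCDC5, a DNA-binding protein of the Myb type linked in Arabidopsis to splicing and the cell cycle, lay at 4.71, 3.62 and 5.21 in UV-B and at 0.71, 0.67 and 0.75 in blue light. It was above darkness under both lights and much higher in UV-B (difference 3.80 ± 0.42 SE, adjusted p = 0.000274). AT3G05940, of unknown function, measured 2.85, 3.51 and 2.90 in UV-B and -0.35, 0.58 and -0.09 in blue light (8.21-fold, adjusted p = 0.000872).

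PAS1, an immunophilin known in Arabidopsis for a part in making very long fatty acids, was 7.74-fold higher, at 2.21, 2.45 and 1.58 in UV-B and -1.02, 0.04 and -1.63 in blue light (adjusted p = 0.00264). KUP5, a potassium transporter, was 6.28-fold higher (adjusted p = 0.00686). The remaining rises were of AT4G14100, a glycosyl transferase (8.23-fold), AT3G48990, an AMP-binding protein (6.41-fold), AT5G52920, a pyruvate kinase (6.09-fold), and AT5G06310, of unknown function (6.02-fold). Their adjusted p values lay between 0.00351 and 0.00903, and the UV-B and blue values overlapped for none of these 4, which their choice required. In the light channel alone AT5G06310 differed by 1.37 (adjusted p = 0.253), its dark channel being lower on the UV-B arrays (-1.22). AT3G48990 differed there by 2.26 (adjusted p = 0.106). The 3 other probes of AT5G52920 differed by -0.03 to 0.47 and did not pass.

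The largest fall was that of AT2G01520, annotated as an unknown protein. Its values were -4.56, -3.42 and -5.55 in UV-B and 0.51, 0.55 and 0.42 in blue light. The blue values lay close together and far above those of UV-B. Its light channel was saturated on all 3 blue arrays, so that channel gives only a bound, at least 22.6-fold lower in UV-B. The adjusted p was 0.000212 for the light/dark ratio and 0.00122 for the light channel alone. Next came a pair of glycosyl hydrolases, AT4G27830 and AT5G42100. AT4G27830 lay at -3.82, -3.27 and -3.73 in UV-B and at 0.38, 1.04 and 1.31 in blue light (22.9-fold lower, adjusted p = 0.000194). AT5G42100 lay at -3.19, -2.07 and -2.99 in UV-B and at 1.49, 1.01 and 2.19 in blue light (19.8-fold lower, adjusted p = 0.000194). In the light channel alone AT5G42100 differed by -2.58 (adjusted p = 0.0135), its dark channel being higher on the UV-B arrays by 1.73. The 4 other probes of AT5G42100 differed by -1.70 to 0.37 and did not pass.

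Signalling and membrane traffic genes followed. ARAC9, a small GTPase of the Rop family, measured -3.15, -3.16 and -4.90 in UV-B and 0.75, -0.29 and 0.77 in blue light (17.7-fold lower, adjusted p = 0.00119). RALFL22, of the secreted RALF peptides that raise the pH around cells, lay at -3.21, -2.51 and -3.66 in UV-B and at 0.77, 0.17 and 1.54 in blue light (15.5-fold lower, adjusted p = 0.00119). For AT3G51550, a kinase, UV-B gave -2.15, -2.89 and -2.58 and blue light 0.08, 1.12 and 1.21 (10.1-fold lower, adjusted p = 0.000684), while its other probe differed by -0.80 and did not pass. In none of the 3 did the lights overlap, which the choice of the largest falls required. SAR1, a synaptobrevin-related protein of vesicle fusion, was 13.1-fold lower (adjusted p = 0.000405), but its 2 other probes differed by 0.82 and 1.21 and did not pass.

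Further falls were of HIS1-3, a linker histone known in Arabidopsis to respond to drought, by a difference of -3.33 (adjusted p = 0.00113), AT2G41835, a zinc-binding protein, at 10.6-fold (adjusted p = 0.00119), and AT5G61130, unknown, at 9.69-fold (adjusted p = 0.000872). AT5G61130 was above background in the light channel on 2 of 3 UV-B arrays. The 3 other probes of AT2G41835 lay at 0.45 to 0.68.

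**Figure D4:**
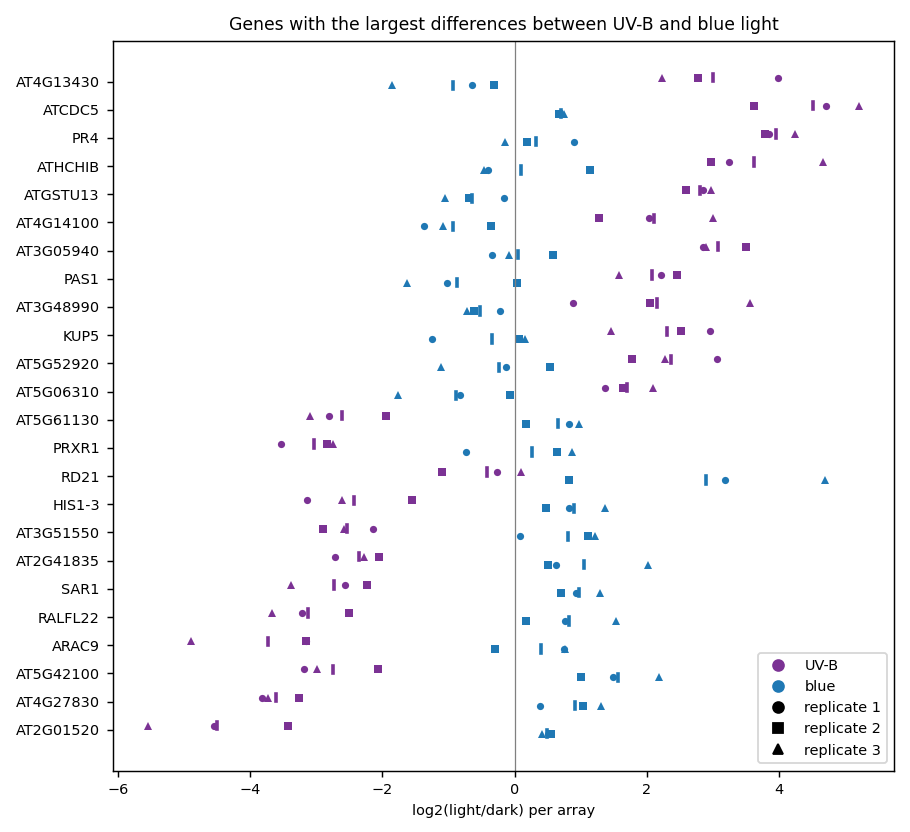
Log2(light/dark) on each array (horizontal axis) for the 12 genes that rose most and the 12 that fell most from blue light to UV-B. Points are arrays, with the marker giving the replicate number, and short bars are the means of 3 arrays. UV-B and blue values do not overlap for any of the 24, which the choice of these genes required.

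Of the 46 passing genes named here, 9 passed on their brightest probe in all 25 alternative fits, PR4, ATGSTU13, ATCDC5, AT2G01520, AT4G27830, AT5G42100, SAR1, AT3G51550 and PRXR1. All 46 passed with the replicate block, 11 did without replicate number 1, and 32 did in the light channel alone. A saturated spot on at least 1 of the 6 arrays touched 17 of the 52 named genes, among them PR4, ATCDC5, PRXR1 and AT4G27830, which compresses a ratio.

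Genes carried by many clones allow the probes of 1 name to be set side by side. There were 42 names with at least 8 probes, a limit chosen after values were seen. Probes of a name can be overlapping clones or different turnip copies, so they are not replicates. For PRXR1, 23 of 29 probes passed as lower and 0 as higher, with a median difference of -2.74. AT3G14210, a carboxylic ester hydrolase, had 20 of 28 lower (median -2.49), whereas AT1G54020, annotated with the same activity, had 7 of 33 lower (median -0.79). For both, a majority of clones lay below 0.

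AT2G01520 passed as lower on 5 of 9 probes, which ranged from -5.58 to 0.61. MBP1 had 6 of 12 lower and DRM1 5 of 11, and every probe of each was negative. AT3G57010, annotated as a strictosidine synthase, and AT2G39310, unknown, each had 4 of 8 lower.

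Other names stood out on the higher side. GAPC, the cytosolic glyceraldehyde phosphate dehydrogenase of glycolysis, had 14 of 28 probes higher and 0 lower, with a median of 1.44. ACO1, of the last step of ethylene synthesis, had 4 of 9 probes higher, all 9 above 1.43, and 9 of 9 passed with the block. The replicates were uneven, with a median UV-B minus blue difference over these probes of 3.09, 0.39 and 3.01 for numbers 1, 2 and 3. ATOSM34, an osmotin-like defence protein, had 4 of 10 higher, but its probes ran from -1.99 to 2.92.

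Probes of 1 name did not always point 1 way. Among 352 names with more than 1 probe, 162 had at least 1 passing probe, 8 had all probes passing in 1 direction, and 7 had probes passing in both. Those 7 were AT1G72290, an endopeptidase inhibitor with 4 of 31 probes higher and 1 lower, and AT1G73325, AT2G19750, AT3G62870, AT5G51570, LP1 and XTH9. For LP1, a lipid-binding protein, the probes ran from -4.06 to 1.31.

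**Figure D5:**
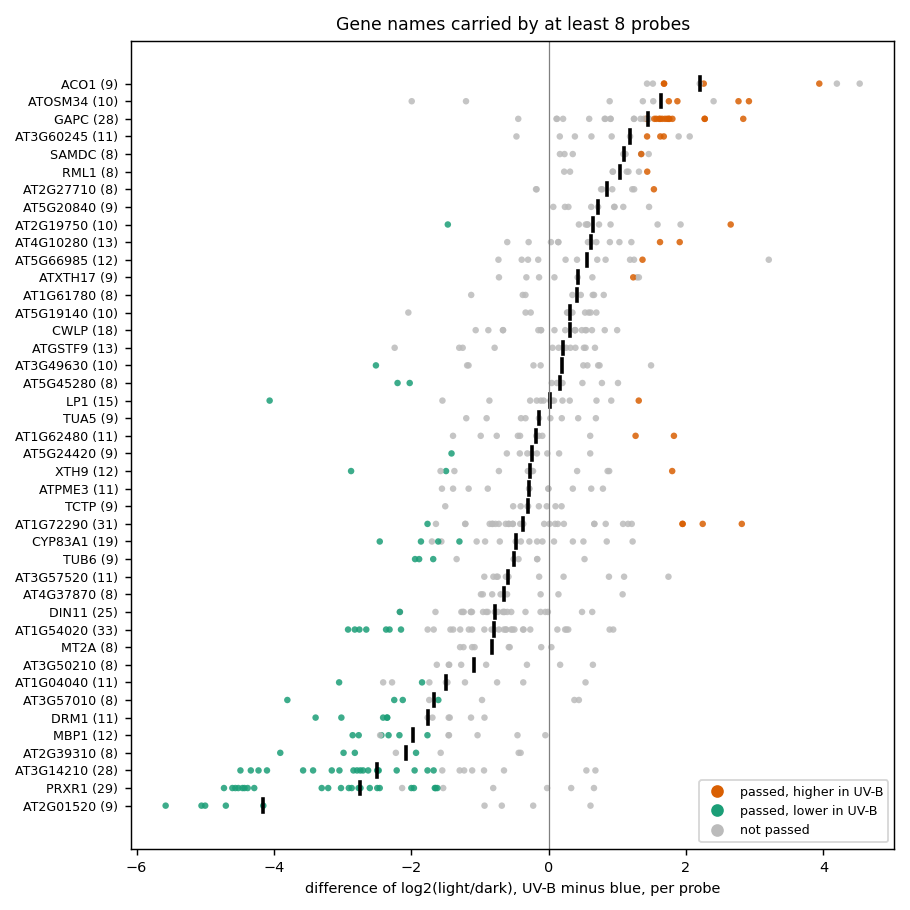
Difference of log2(light/dark), UV-B minus blue (horizontal axis), for each probe of the 42 gene names with at least 8 probes, ordered by their median (black bar), with the number of probes in brackets. AT2G01520, PRXR1 and AT3G14210 lie lowest and ACO1, ATOSM34 and GAPC highest, and several names spread over both sides of 0.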

How the data were processed

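Each array's deposited text file gave foreground and background intensity values of both channels, on a linear scale and not normalized, per the file headers, with a spot weight of 0 or 1, a score from the authors of unstated meaning. The sources used here do not give the authors' scanner or software. Of 6272 spots, 5299 had weight 1 and a probe number. Background was corrected with normexp (offset 50), ratios were normalized by loess within each array and spots were averaged per probe (limma 3.58.1, R 4.3.3). A model with a mean per light over all 9 arrays gave UV-B minus blue, tested with lmFit and eBayes, two-sided. P-values measure the spread between these replicates. Figures used matplotlib 3.10.9. The number of arrays limits the precision.

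The authors also deposited log2 values in a table. They ran as dark over light (r of -0.963 to -0.854 with log2(light/dark) of the same array), so the direction here opposes theirs and the sign was turned. Column medians lay between -0.164 and 0.048, and the scale was log2, with unknown centring. They served as an alternative for 2506 probes. Dark split-control arrays were not used here.

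Replicate numbers in the titles pair the arrays, as all 9 same-numbered pairs correlated in their deviations from group means (0.105 to 0.622). For UV-B with blue this was 0.244 to 0.329 for equal numbers and -0.245 to 0.0591 for unequal ones. The main fit left this pairing out, and the numbers were fitted as a block in an alternative (723 probes passed, against 460). Calls given without mention of the block are those of the unpaired fit. What a number stands for, such as a day or a shared dark extract, is not stated in the labels.

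Named genes were the 12 largest rises and 12 largest falls past the threshold without overlap, plus, per list, the 2 passing members that differed most (or, with none passing, its brightest member). Further members are named from the lists after their values were seen. Members and lists were chosen with earlier results of these data known. A channel counted as above background at over 1.5 times background. Where a probe was saturated in the light channel on all arrays of a light, only a bound is given, from the light channel. Lists were matched by the names and annotation words in the files, so a gene given there under another name could be missed. Matching by letters alone (as with PAL1 for a proteasome pattern) was removed by hand. The fit was tested on simulated data. The alternatives were other background corrections, normalizations, spot filters, the authors' values, 1 channel alone, the block, and arrays left out.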

Additional observations from a re-analysis of the deposited data

Results flagged for a closer look

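Spots without a clone number gave signal in the light channel. Of 135 such spots, 99.3% were over 1.5 times background on blue replicate 3 and 99.3% on UV-B replicate 3. The share was 3.7% on blue replicate 1, 7.41% on blue replicate 2 and 2.96% on UV-B replicate 1. On UV-B replicate 2 it was 2.22%, which equals the limit that a count of 0 allows at 135 spots (counting error only), and the 2.96% lies close to that limit. The spread of log2(light/dark) over probes was also widest on the arrays numbered 3, with an SD of 1.35 in blue light and 1.4 in UV-B, against 0.642 to 1.09 on the other 4 arrays. Without the arrays numbered 3, 186 probes passed, or 323 with the replicate block, against 460. The part of this signal in the differences was not tested.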

How the results depend on the processing

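The direction of the 46 passing named genes reversed in none of the 25 alternatives, and over 24 of them, of the values of the 52 named genes, 1099 kept direction and side of the threshold, 134 no longer passed, 1 newly passed and 14, of genes that did not pass, changed sign. The count of 460 passing probes was 723 with the replicate block over 9 arrays, 293 with the 6 arrays of UV-B and blue alone and no block, 187 in the light channel alone, and 937 in the authors' deposited table with the replicate block. Other settings with all their arrays gave 456 (spot weights ignored) to 602 (block over 6 arrays). With 1 array left out the count ranged from 218 to 460, and with all arrays of 1 number left out from 39 to 299. In the authors' values, 581 probes passed, of which 53.7% were higher in UV-B, against 43.9% here, so the balance of higher and lower turned with the source of values. That share was 21.9% in the light channel alone. Without the arrays numbered 3 and with the replicate block, chosen after seeing the data, 323 passed. The cause of these shifts was not tested. The block changed no call of a named passing gene.

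Over 1 probe per name, 282 passed with the block, against 182. Signal limits the comparison most on UV-B replicate 1, where 78.8% of probes were above background in the light channel. Requiring 5 of 6 arrays above background left 2305 probes, of which 476 passed.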
